A study of Mus musculus with 4 samples.

Results

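The semaphorins, plexins, Slits, Robos and netrins with their Unc5 and Dcc receptors are families of guidance genes, and 43 of them were read here in single nuclei of the mouse heart. Members were taken by symbol: every semaphorin and plexin gene, Slit1 to Slit3, Robo1 to Robo4, Unc5a to Unc5d, Ntn1, Ntn4 and Dcc, with at least 20 UMIs (unique molecular identifiers, each standing for 1 captured transcript) over all barcodes of the 4 libraries. All 43 of the 43 matching symbols among 32287 features met that rule, and 20381 features of any kind did. The member of fewest UMIs was Robo3 with 21, so no matching symbol lay just outside. Total cardiac nuclei were assayed with 10x Genomics 3′ v3 chemistry in C57BL/6 mice 6 months old. There was 1 library for each of 4 groups: wild type (WT), Rbm20_het, which carries an Rbm20 mutation on 1 allele, Rbm20_homo, which carries it on both, and the homozygous mutation with gene editing correction (Rbm20_homo_corrected, the corrected library below). Rbm20 encodes a splicing regulator of heart muscle. The allele, the editing agent and the time of editing are not given in the sources used here, and the protocol text also mentions CD45+ cells. Each library pooled 3 hearts, so a group is 1 sample: no difference between genotypes has a replicate check, library and genotype cannot be told apart, and every interval below covers counting error only.

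Guidance molecules were first described as cues that steer growing axons, and they act in vessels and heart as well. Semaphorins, secreted in class 3 and membrane-bound in classes 4 to 7, signal through plexins, with neuropilins as co-receptors for most class 3 members. Slits are secreted ligands of Robo receptors, and netrins are laminin-related ligands of Dcc and the Unc5 receptors. In the heart, Sema3a is known for patterning sympathetic nerves, Sema3c and Plxnd1 for outflow tract formation, and Unc5b and Robo4 for vessel guidance and stability.

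Members lay on 18 chromosomes of the mouse build GRCm38 (GENCODE vM21), with 6 on chromosome 9 and 5 on chromosome 5. Their median span was 107 kb and 22 of the 43 exceeded 100 kb, with no span over all genes taken for comparison. Sema5a spans chromosome 15 from 32244810 to 32696341 on the plus strand, Unc5b chromosome 10 from 60762593 to 60831581 on the minus strand, and Ntn1 chromosome 11 from 68209364 to 68400823 on the minus strand. Slit2 spans chromosome 5 from 47983138 to 48307733 and Sema3a the same chromosome from 13125414 to 13602565, both on the plus strand. No member overlapped another annotated protein-coding or long noncoding gene on its own strand. Small RNA genes and pseudogenes were left out of that search. Sema5a, Slit2 and Ntn4 each overlap a long noncoding RNA on the other strand.

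The 250 bases before the start site are shown for the 4 genes with the largest ratios between Rbm20_homo and WT in cardiomyocyte-like nuclei among those with a promoter sequence in the RefSeq table for GRCm38.p6, which held 34 of the 43 members. Each runs 5′ to 3′ on the gene's strand, and capitals mark a TATAAA match. The windows are chr15:32244563-32244812 (plus), chr10:60831582-60831831 (minus), chr5:47982905-47983154 (plus) and chr5:13396534-13396783 (plus), in the order below.
Sema5a: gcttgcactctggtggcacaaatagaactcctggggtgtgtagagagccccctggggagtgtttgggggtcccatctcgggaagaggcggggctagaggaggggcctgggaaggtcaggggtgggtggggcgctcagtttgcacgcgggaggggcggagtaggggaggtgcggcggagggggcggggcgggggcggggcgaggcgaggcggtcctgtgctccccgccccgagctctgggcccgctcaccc
Unc5b: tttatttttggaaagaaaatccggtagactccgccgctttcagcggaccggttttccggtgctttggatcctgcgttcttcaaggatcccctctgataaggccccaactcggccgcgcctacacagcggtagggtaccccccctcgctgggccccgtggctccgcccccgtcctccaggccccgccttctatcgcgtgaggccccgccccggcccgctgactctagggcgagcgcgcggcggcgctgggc
Slit2: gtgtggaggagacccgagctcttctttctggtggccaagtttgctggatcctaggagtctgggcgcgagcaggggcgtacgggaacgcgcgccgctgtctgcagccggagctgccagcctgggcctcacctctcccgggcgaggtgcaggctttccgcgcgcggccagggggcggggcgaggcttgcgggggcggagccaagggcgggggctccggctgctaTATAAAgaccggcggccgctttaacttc
Sema3a: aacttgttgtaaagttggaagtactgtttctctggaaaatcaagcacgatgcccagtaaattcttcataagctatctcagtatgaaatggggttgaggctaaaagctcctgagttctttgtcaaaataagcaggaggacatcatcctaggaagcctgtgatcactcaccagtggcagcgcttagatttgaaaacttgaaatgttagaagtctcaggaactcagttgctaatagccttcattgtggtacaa
The first 3 are rich in G and C, at 72.0% for Sema5a, 66.8% for Unc5b and 69.6% for Slit2, and that of Sema3a holds 40.8%. The Sema3a window lies inside the annotated gene, before an internal transcript start. The median was 64.0% over 47 windows of members and 52.4% over 32851 windows of all genes. Of 5 motifs searched on both strands, TATAAA was found in 1 member window, that of Slit2, 28 bases before the start, and in 12.4% of all windows. The AP-1 motif TGANTCA was in 3 of the 47 member windows against 6.75% of all, the TEAD motif GGAATG in 3 against 12.6%, the GATA motif AGATAA in 1 against 9.99%, and the E-box CACGTG in 3 against 6.02%. A match describes the letters in this window only.

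The libraries held 9494 to 15153 barcodes and 37180791 to 52370368 UMIs, and 223 barcode sequences occurred in more than 1 library. After filtering, 41139 nuclei were clustered without the guidance genes among the variable genes, and clusters were named "like" a cell type from marker lists. Cardiomyocyte-like nuclei numbered 2388 to 3056 per library with 15430822 to 19627205 UMIs, fibroblast-like 1917 to 3642, and endothelial-like 1279 to 2312. In the cardiomyocyte-like class 11 or 12 of 12 markers were highest among classes in each library and none was at 0 (summed level 59690 to 69540 UMIs per 1e6, CPM). In the fibroblast-like class 8 or 9 of 10 markers were highest, without Col3a1 in any library. In the endothelial-like class 7 or 8 of 10 were, without Pecam1 and Emcn in any library. Rbm20 itself was at 4551, 4576, 3812 and 4707 CPM in WT, Rbm20_het, Rbm20_homo and corrected cardiomyocyte-like nuclei. With the allele not given, this level does not check the labels. The added features ABE_N and ABE_C had 0 UMIs in those nuclei of the first 3 libraries and 3241 and 2352 UMIs in the corrected one. Different clusters held most of a class in Rbm20_homo: 2896 of its 2944 cardiomyocyte-like nuclei lay in cluster 3 and 48 in cluster 0, whereas 2850 of 2899 WT nuclei lay in cluster 0. Likewise 2678 of 3063 fibroblast-like nuclei of Rbm20_homo lay in cluster 4, which held 58 of 1917 in WT. Malat1, an abundant nuclear RNA, took 24.1% of cardiomyocyte-like UMIs in Rbm20_homo and 14.5% to 15.5% in the others.

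Levels are given as CPM: a gene's UMIs are summed over a class in 1 library and divided by that sum's non-mitochondrial total in units of 1e6, always in the order WT, Rbm20_het, Rbm20_homo, corrected. A carry-over level stands beside them where it matters: what a class would show if it held every other class's RNA in the proportion of that class's markers. It can exceed the measured level, and it also counts marker RNA that classes truly share. Endothelial markers, for example, stood at a median of 36.9% to 43.8% of their endothelial-like level in endocardial-like nuclei. A level at or under it is called background below: it cannot be told apart from carry-over, and was not shown to be carry-over.

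Of the 43 genes, 36 had at least 20 UMIs in some class of every library, and 27 of those had the same highest class in all 4, read in each library among classes with at least 20 UMIs of the gene. For a gene of low level this rule leaves small classes out of the ranking. Plxnb2, for example, was placed in macrophage-like nuclei at a mean of 46.6 CPM, although mesothelial-like nuclei had a mean of 56.2 CPM. In 15 the lowest library of the top class lay above the highest library of the next class. The 7 others were Dcc, Plxna3, Plxnb3, Robo3, Sema4f, Sema4g and Sema5b, too sparse to place.

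Ligands had their top classes in several lineages. Slit2 was highest in fibroblast-like nuclei, at 516, 428, 328 and 428 CPM, and Slit3 in mesothelial-like nuclei, at 2258, 3867, 3407 and 2286 CPM, followed by fibroblast-like nuclei at 1125, 1800, 1046 and 982 CPM. Slit1 was highest in macrophage-like nuclei, at 40.8, 71.2, 37.2 and 27.3 CPM. The 3 Slit genes thus had 3 different top classes, and in each the 4 libraries lay apart from the next class. Sema3a was highest in lymphatic endothelial-like nuclei, at 507, 584, 727 and 677 CPM, with endocardial-like nuclei next at 88.6 to 105 CPM. Ntn1 had the same top class, at 930, 1530, 1143 and 1617 CPM, again with endocardial-like nuclei next at 155 to 276 CPM. In both genes no lymphatic library came near the next class, although that class held 113 to 256 nuclei per library. Sema3c and Sema3d were highest in mesothelial-like nuclei in 4 and 3 libraries, with means of 619 and 765 CPM, from 25 to 83 nuclei per library. Ntn4, a basement membrane netrin, was highest in smooth muscle-like nuclei at 309, 248, 246 and 219 CPM. Sema3g was highest in endothelial-like nuclei, Sema4a in macrophage-like nuclei and Sema7a in endothelial-like nuclei in every library. The membrane-bound Sema5a was highest in pericyte-like nuclei in 2 libraries, at 435, 395, 393 and 561 CPM, and mesothelial-like nuclei, at 330 to 475 CPM, overlapped that range. The ligands highest in cardiomyocyte-like nuclei in all 4 libraries were Sema3b, at 20.2, 17.7, 21.7 and 19.9 CPM, and Sema4b, at 42.4, 40.6, 34.8 and 38.2 CPM. Neither stood apart from every other class, and classes with fewer than 20 UMIs of the gene were not ranked.

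Receptors also had their top classes in several lineages. Plxna2 (391, 457, 525 and 489 CPM), Plxnd1, the endothelial semaphorin receptor (272, 192, 134 and 233 CPM), and Robo4, the Robo of endothelium (143, 113, 102 and 92.1 CPM), were highest in endothelial-like nuclei in every library. Robo2 was highest there in 3 libraries, and in Rbm20_homo fibroblast-like nuclei led at 49.9 against 34.4 CPM. Plxna4, a partner of neuropilins and of class 6 semaphorins, was highest in mesothelial-like nuclei, at 4077, 2474, 2997 and 4442 CPM, from 270 to 936 UMIs per library. Unc5b was highest in lymphatic endothelial-like nuclei, at 104, 83.5, 138 and 90.6 CPM, with endothelial-like nuclei at 57.8 to 61.7 CPM. Robo1 and Unc5c led in fibroblast-like nuclei, Plxnc1 in endocardial-like nuclei and Plxna1 in pericyte-like nuclei in all 4 libraries. Sema6a, which also acts as a receptor, was highest in lymphatic endothelial-like nuclei at 2048, 2334, 1784 and 1691 CPM, and endothelial-like nuclei came next at 907 to 1529 CPM.

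**Figure D1:**
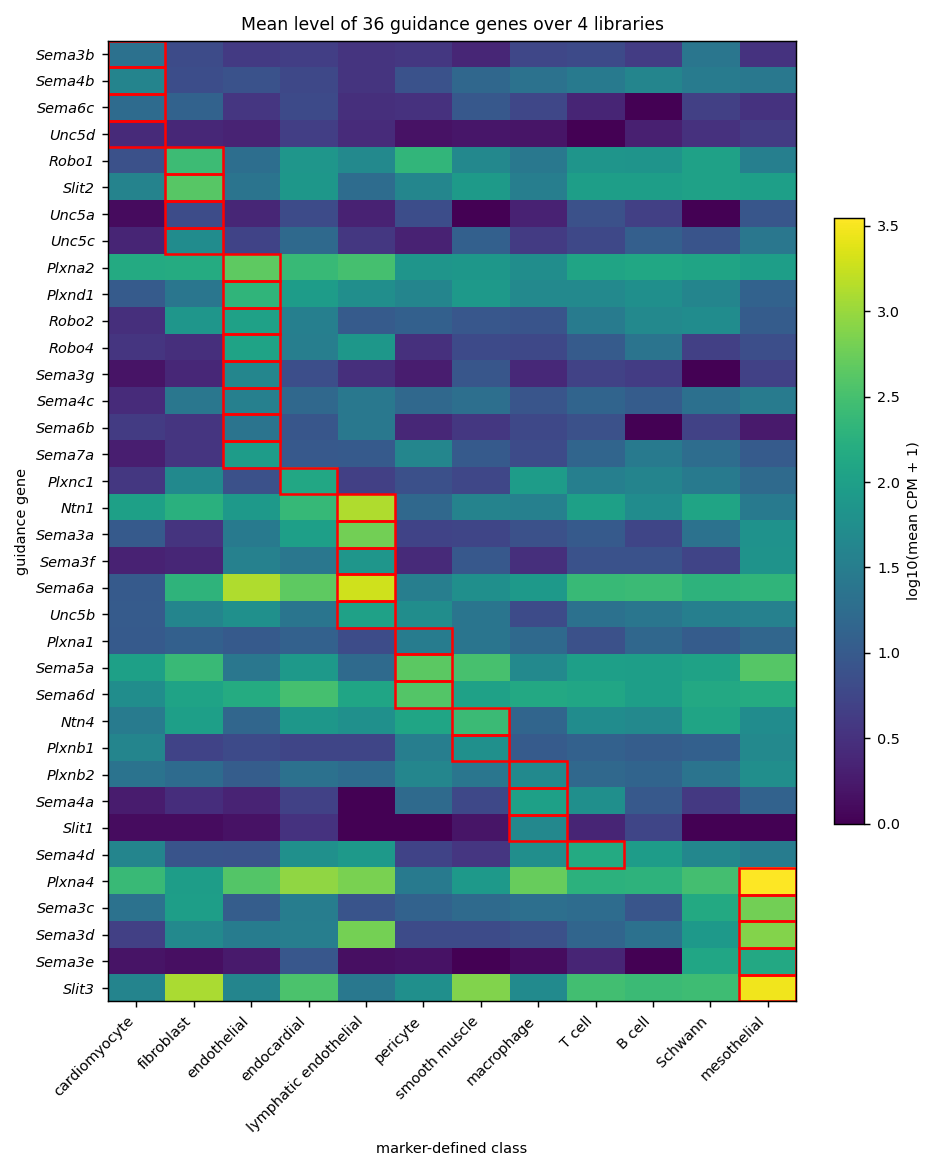
Mean level over the 4 libraries of 36 guidance genes (rows) in 12 marker-defined classes (columns), as log10(mean CPM + 1). A red frame marks the class highest in the largest number of libraries, with ties going to the higher mean level. The frames fall in 10 of the 12 classes, and among the brightest cells are Plxna4 and Slit3 in the mesothelial column and Sema6a and Ntn1 in the lymphatic column.

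In cardiomyocyte-like nuclei of Rbm20_homo, 3 guidance genes were past 2-fold higher than in WT and 8 past 2-fold lower, of 28 with at least 50 UMIs in both libraries together. The share of all 13048 genes past the same fold was 6.25% higher and 9.17% lower, against 10.7% and 28.6% of the guidance genes. Higher were Sema5a, Unc5b and Sema3d, and lower were Sema3a, Ntn1, Slit2, Plxnb1, Ntn4, Sema4c, Sema4d and Slit3. The median log2 ratio was -0.49 over the guidance genes and -0.18 over all genes, and 11 of the 28 lay above the median of all genes. TMM scaling moved the median of all genes by 0.17, to -0.01, and turned the calls over all genes from 40.5% to 55.9% higher, while the guidance genes were called 3 and 8 as before.

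Sema5a, a transmembrane semaphorin with thrombospondin repeats, was highest in Rbm20_homo. Its level was 52.9, 102, 234 and 16.9 CPM, from 839, 1580, 4594 and 263 UMIs, against a carry-over level of 7.15, 10.9, 22.15 and 14.1 CPM. Rbm20_het came second, and the corrected library lay below WT, near its carry-over level. The ratio of Rbm20_homo to WT was 4.43 (95% interval 4.11 to 4.77), and the corrected library was 13.9-fold lower (12.2 to 15.7) than Rbm20_homo and 3.13-fold lower (2.72 to 3.61) than WT. Nuclei with a Sema5a UMI made up 18.7%, 35.6%, 58.7% and 6.71% of the class, and after thinning each nucleus to 1000 UMIs 5.0%, 9.13%, 19.0% and 1.77%. In macrophage-like nuclei, taken here as a comparison class, the thinned shares were 3.24%, 4.12%, 5.36% and 3.30%. Cardiomyocyte markers stood there at a median of 27.0%, 14.5%, 18.2% and 15.2% of their cardiomyocyte-like level. The part of this in the macrophage-like shares was not tested. The median depth was 4514 to 5894 UMIs in the first class and 1778 to 2120 in the second. The thinned share in the corrected library thus lay at or under that of macrophage-like nuclei, and the share in Rbm20_homo far above it. The ratio was also seen within each cardiomyocyte-like cluster, at 5.18 (3.92 to 6.72) in cluster 0 and 3.71 (2.40 to 6.08) in cluster 3.

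Sema3a, the secreted semaphorin that repels sympathetic axons, went the other way. Its level was 23.1, 4.08, 1.48 and 8.10 CPM, from 367, 63, 29 and 126 UMIs. WT was highest and the corrected library second, while Rbm20_homo lay under its carry-over level of 4.59 CPM. The level in Rbm20_homo was 15.7-fold lower (10.7 to 23.7) than in WT, and in Rbm20_het 5.66-fold lower (4.33 to 7.52). The corrected library was 5.48-fold higher (3.64 to 8.52) than Rbm20_homo and 2.86-fold lower (2.33 to 3.52) than WT. Within cluster 3 the Rbm20_homo level was 12.6-fold lower (4.29 to 31.0), and cluster 0 of Rbm20_homo held no Sema3a UMI in 48 nuclei. The exact Poisson upper limit in cluster 0 of Rbm20_homo was 16.48 CPM, against 23.21 CPM (20.88 to 25.73) in cluster 0 of WT. The cluster 3 ratio of Sema3a rests on only 6 WT UMIs from 49 nuclei, because 361 of the 367 lay in cluster 0.

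Slit2 followed the same order as Sema3a. Its level was 68.7, 20.02, 9.78 and 49.7 CPM, against carry-over levels of 12.2, 13.5, 18.7 and 15.3 CPM, so Rbm20_homo lay under the level of background. It was 7.03-fold lower (6.02 to 8.24) in Rbm20_homo and 3.43-fold lower (3.02 to 3.91) in Rbm20_het than in WT, and 5.08-fold higher (4.33 to 5.98) in the corrected library than in Rbm20_homo. The corrected and WT libraries differed by less than 2-fold. Fibroblast markers stood at a median of 2.02%, 2.68%, 4.96% and 3.17% of their fibroblast-like level in cardiomyocyte-like nuclei. The part of this in the Slit2 levels was not tested. Within cluster 3 the Rbm20_homo level was 4.45-fold lower (2.39 to 7.66), and in cluster 0 it had 0 UMIs in 48 nuclei (exact Poisson 95% upper limit 16.48 CPM). The cluster 3 ratio of Slit2 also rests on few WT UMIs, because 1077 of the 1091 lay in cluster 0. Slit3 was at 44.0, 39.1, 19.0 and 51.0 CPM, 2.32-fold lower (2.04 to 2.64) in Rbm20_homo than in WT. Carry-over for Slit3 was 29.5, 59.5, 64.0 and 37.15 CPM, above the measured level in Rbm20_het and Rbm20_homo. Without doublet removal the log2 ratio of Slit3 was -0.55, within 2-fold. In all 4 libraries the fibroblast-like level of Slit2 was above its cardiomyocyte-like level.

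In WT, much of the Slit2, Slit3 and Sema3a of cardiomyocyte-like nuclei lay in few nuclei, and less of it did in Rbm20_homo. Nuclei with at least 5 UMIs of the gene held 64.0%, 46.0%, 18.8% and 61.3% of Slit2 UMIs, 39.3%, 29.0%, 14.5% and 29.1% of Slit3 UMIs, and 53.7%, 7.94%, 0% and 28.6% of Sema3a UMIs. With a fixed cutoff this share falls as a gene's level falls, so it shows no change of spread apart from the level. In WT, 56 of 2899 cardiomyocyte-like nuclei (1.93%, Clopper-Pearson 95% interval 1.46 to 2.50) had at least 5 Slit2 UMIs, a threshold chosen after the values were seen, and they held 698 of 1091 Slit2 UMIs. Rbm20_het had 18 such nuclei (0.754%, 0.447 to 1.19), Rbm20_homo 7 (0.238%, 0.0956 to 0.489) and the corrected library 36 (1.18%, 0.826 to 1.63). The order of the shares is that of the Slit2 level itself. These nuclei were also high in Sema3a and Slit3. In WT they held 164 of the 367 Sema3a UMIs, at 395 CPM (337 to 460) against 10.6 CPM (8.96 to 12.4) in nuclei with no Slit2 UMI. In the corrected library the same comparison gave 216 CPM (163 to 279) against 4.17 CPM (3.17 to 5.39), and in Rbm20_het 50.8 CPM (23.2 to 96.4) against 3.13 CPM (2.28 to 4.19). In Rbm20_homo it was 25.9 CPM (3.14 to 93.5), from 2 UMIs, against 1.17 CPM (0.736 to 1.78). Sema3a was thus higher beside Slit2 in all 4 libraries, with counting intervals apart. These intervals treat UMIs as independent and do not measure the spread between nuclei. In WT 1 nucleus held 28 Sema3a UMIs, and in the corrected library 3 nuclei held 36 of 126. The Rbm20_het and Rbm20_homo values rest on 9 and 2 UMIs. Slit3 was at 448, 592, 64.7 and 594 CPM in nuclei with at least 5 Slit2 UMIs and at 29.4, 29.8, 18.2 and 39.3 CPM in those with none. Ntn1 differed less, at 323 CPM (270 to 382) against 187 CPM (180 to 194) in WT. Sema5a was at 120 CPM (89.3 to 159) against 51.3 CPM (47.6 to 55.2) in WT, and in Rbm20_homo the intervals of the 2 groups overlapped.

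The nuclei with at least 5 Slit2 UMIs were deeper, with a median of 6418 UMIs in WT against 4802 in nuclei with none, and 6732 against 4437 in the corrected library. Fibroblast markers, 10 genes summed, were at 89.1 CPM in these WT nuclei and 152 CPM in WT nuclei without Slit2, at 163 against 230 CPM in the corrected library, at 155 against 294 CPM in Rbm20_homo and, the other way, at 220 against 203 CPM in Rbm20_het. Cardiomyocyte markers, 12 genes summed, were at 60740 against 69420 CPM in WT. Of the 56 nuclei in WT, 55 lay in cluster 0, and all 7 of Rbm20_homo lay in cluster 3. Sema5a was spread in another way: in Rbm20_homo 250 of 2944 cardiomyocyte-like nuclei had at least 5 Sema5a UMIs and held 1692 of its 4594 UMIs. Unc5b, with fewer UMIs than Sema5a in every library, had no nucleus with 5 UMIs.

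**Figure D2:**
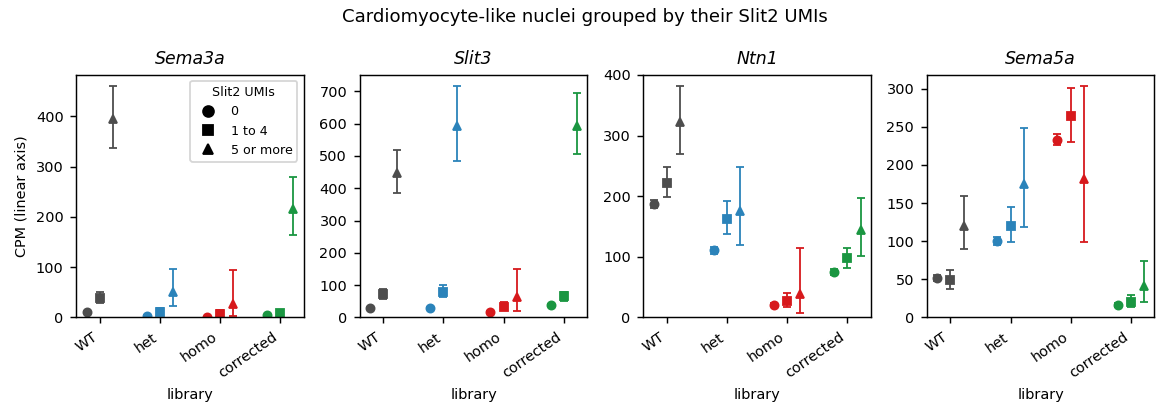
Level in CPM (linear axis) of Sema3a, Slit3, Ntn1 and Sema5a in cardiomyocyte-like nuclei of each library, grouped by the Slit2 UMIs of the nucleus (circles 0, squares 1 to 4, triangles 5 or more), with exact Poisson 95% intervals. The WT triangle of Sema3a stands at 395 CPM above a circle at 10.6, and Slit3 triangles stand at 448 to 594 CPM in every library but Rbm20_homo.

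Ntn1, the netrin ligand of Dcc and Unc5 receptors, was at 193, 114, 21.3 and 78.2 CPM in cardiomyocyte-like nuclei, from 3069, 1764, 418 and 1216 UMIs. Carry-over was 10.4 to 13.2 CPM, so the lowest library still lay above it. The level was 9.08-fold lower (8.20 to 10.1) in Rbm20_homo than in WT, 3.67-fold higher (3.28 to 4.11) in the corrected library than in Rbm20_homo, and 2.47-fold lower (2.31 to 2.65) in the corrected library than in WT. Rbm20_het was within 2-fold of WT. In WT 51.1% of nuclei had a Ntn1 UMI, in Rbm20_homo 10.9%, and after thinning the shares were 16.8% and 2.65%. The thinned share of macrophage-like nuclei in Rbm20_homo was 2.80%, with an interval of 1.45% to 4.84% that includes the 2.65%. Those nuclei also held cardiomyocyte markers, as given above. Within clusters the Rbm20_homo level was 7.25-fold lower (3.33 to 19.8) in cluster 0 and 6.67-fold lower (4.79 to 9.09) in cluster 3. In fibroblast-like nuclei Ntn1 was at 202, 187, 121 and 197 CPM, all within 2-fold of one another. Ntn4 was at 34.8, 37.2, 13.2 and 31.7 CPM in cardiomyocyte-like nuclei, 2.64-fold lower (2.27 to 3.07) in Rbm20_homo than in WT and 2.40-fold higher (2.06 to 2.80) in the corrected library than in Rbm20_homo. The other 3 libraries lay within 2-fold of one another, and cluster 3 showed the ratio too, at 4.97-fold lower (3.02 to 7.76).

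Sema4d, a membrane semaphorin, and its receptor Plxnb1 were both lower in Rbm20_homo. Plxnb1 was at 52.4, 50.4, 17.3 and 37.8 CPM, 3.03-fold lower (2.67 to 3.45) than in WT, and Sema4d at 52.8, 47.8, 22.5 and 36.5 CPM, 2.35-fold lower (2.09 to 2.64). Within clusters the comparison with WT was too thin to read, with 9 and 7 UMIs of the 2 genes in cluster 0 of Rbm20_homo and 7 of each in cluster 3 of WT: the inverse ratio of Plxnb1 was 1.32 (0.691 to 2.89) in cluster 0 and 1.30 (0.517 to 2.70) in cluster 3, and that of Sema4d 1.71 (0.825 to 4.26) and 0.983 (0.393 to 2.04). In cluster 3 the other libraries were better counted. There Plxnb1 was at 34.85 CPM (26.3 to 45.25) in Rbm20_het and 34.1 CPM (26.7 to 42.9) in the corrected library, above 17.01 CPM (15.2 to 18.9) in Rbm20_homo, and Sema4d at 38.6 CPM (29.6 to 49.5) and 31.7 CPM (24.6 to 40.3), against 22.4 CPM (20.4 to 24.6). Sema4c was at 2.39, 1.75, 1.02 and 1.80 CPM, near its carry-over level of 1.14 to 1.68 CPM, and after thinning its 10 UMIs gave a log2 ratio of -0.02. Sema3d was at 2.21, 3.24, 7.24 and 1.93 CPM with carry-over at 4.04, 3.49, 7.64 and 4.23 CPM, so its 3.28-fold ratio (2.25 to 4.90) compares levels under background.

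Unc5b, a netrin receptor best known in endothelium, had the largest ratio upward. Its cardiomyocyte-like level was 2.27, 7.78, 21.9 and 5.46 CPM, from 36, 120, 430 and 85 UMIs, with carry-over at 1.77, 1.96, 5.93 and 2.70 CPM. WT lay near carry-over and Rbm20_homo well above it. Rbm20_homo was 9.66-fold higher (6.87 to 14.0) and Rbm20_het 3.43-fold higher (2.35 to 5.12) than WT, and the corrected library was 4.01-fold lower (3.17 to 5.12) than Rbm20_homo and still 2.41-fold higher (1.61 to 3.66) than WT. Nuclei with a UMI made up 1.10%, 4.36%, 12.8% and 2.59% of the class, and after thinning 0.311%, 0.754%, 2.38% and 0.590%. The thinned share of macrophage-like nuclei in Rbm20_homo was 1.86%, with an interval of 0.808% to 3.64% that includes the 2.38%. Within cluster 0 the ratio of Rbm20_homo to WT was 11.2 (3.40 to 29.1), from 5 and 31 UMIs, and within cluster 3 it was 1.39 (0.592 to 4.31). Unc5b and Ntn1 thus went in opposite directions in this class.

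The other plexins measured stayed within 2-fold in these nuclei. Plxna4 was at 214, 302, 243 and 262 CPM and Plxna2 at 157, 158, 122 and 139 CPM, with log2 ratios of 0.18 and -0.37 for Rbm20_homo against WT. Sema6d was at 48.5 and 48.3 CPM in WT and Rbm20_homo. The ligands with cardiomyocyte-like nuclei as their top class, Sema3b and Sema4b, had log2 ratios of 0.10 and -0.29.

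**Figure D3:**
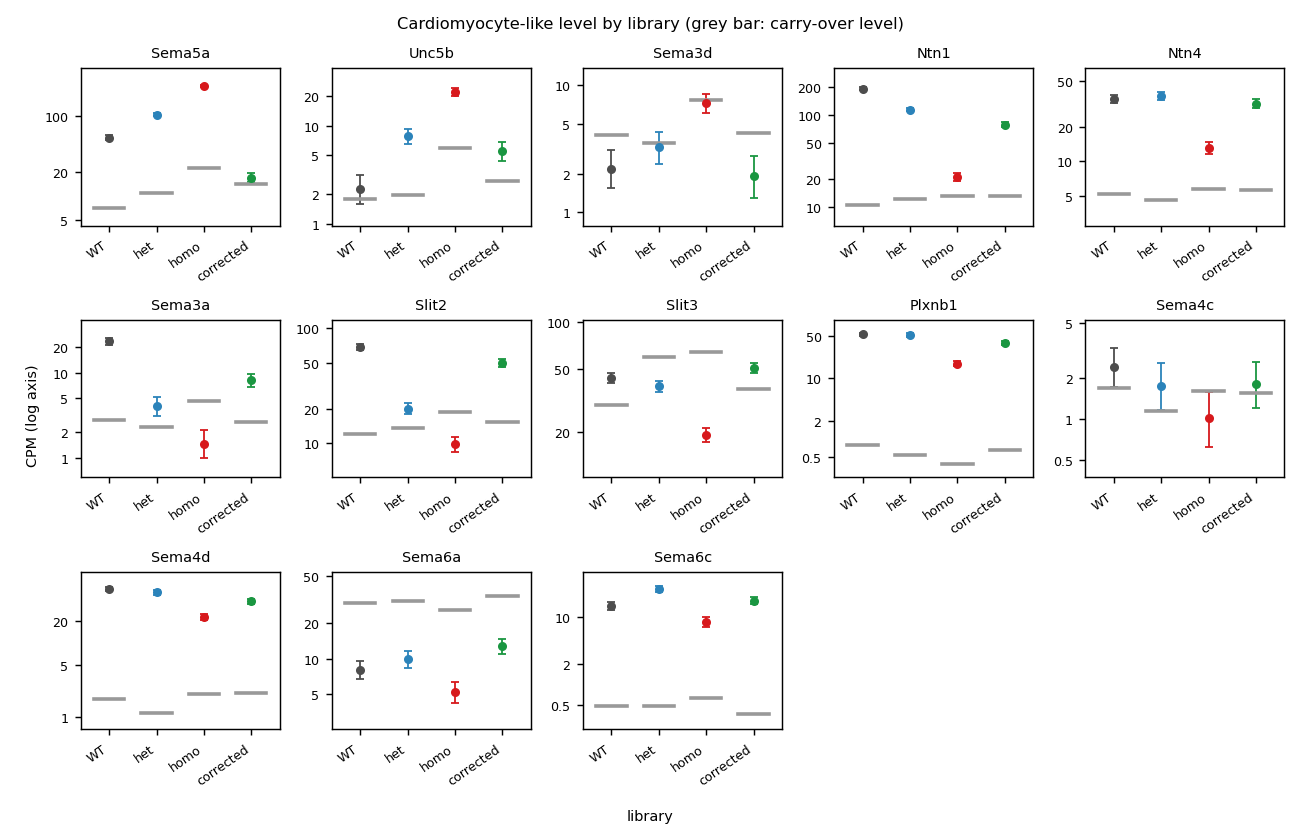
Level in CPM (log axis) of the 13 guidance genes past 2-fold in any cardiomyocyte-like comparison, by library, with exact Poisson 95% intervals, the grey bars showing the carry-over level. Sema5a and Unc5b peak in Rbm20_homo, Ntn1, Ntn4, Sema3a and Slit2 dip there, and Sema3d, Slit3, Sema4c and Sema6a lie near or under their grey bars.

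For Rbm20_het against WT, 1 of 28 guidance genes was past 2-fold higher (Unc5b) and 2 were lower (Sema3a, Slit2). The shares over all genes were 1.74% and 1.62%, against 3.57% and 7.14% of the guidance genes. The 3 genes were also past 2-fold in the same direction in Rbm20_homo. Both comparisons share the WT library, so this is not independent support. TMM scaling put Sema5a past 2-fold as well, and moved the split of calls over all genes from 51.8% to 62.0% higher.

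For the corrected library against Rbm20_homo, 8 of 27 guidance genes were past 2-fold higher and 3 lower, against 5.64% and 4.36% of all genes. Lower were Sema5a, Unc5b and Sema3d, and higher were Sema3a, Slit2, Ntn1, Slit3, Sema6a, Ntn4, Plxnb1 and Sema6c. Slit3 was 2.68-fold higher (2.37 to 3.04) and Plxnb1 2.19-fold higher (1.91 to 2.51). Without doublet removal the log2 ratio of Slit3 was 0.78, and with Malat1 left out of the total that of Plxnb1 was 0.97, both within 2-fold. Sema6a went from 5.20 to 12.7 CPM, under carry-over of 25.7 and 33.9 CPM. Sema6c, at 14.4, 25.6, 8.36 and 17.0 CPM, was 2.04-fold higher (1.67 to 2.49), and its log2 ratio was 0.92 under TMM scaling. TMM scaling also shifted the split of calls over all genes from 56.4% to 45.1% higher. For the corrected library against WT, 1 of 28 was higher (Unc5b) and 3 lower (Sema5a, Sema3a, Ntn1), against 2.14% and 2.22% of all genes. The corrected level thus lay on the far side of WT from Rbm20_homo for Sema5a, and between WT and Rbm20_homo for Unc5b, Sema3a and Ntn1.

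**Figure D4:**
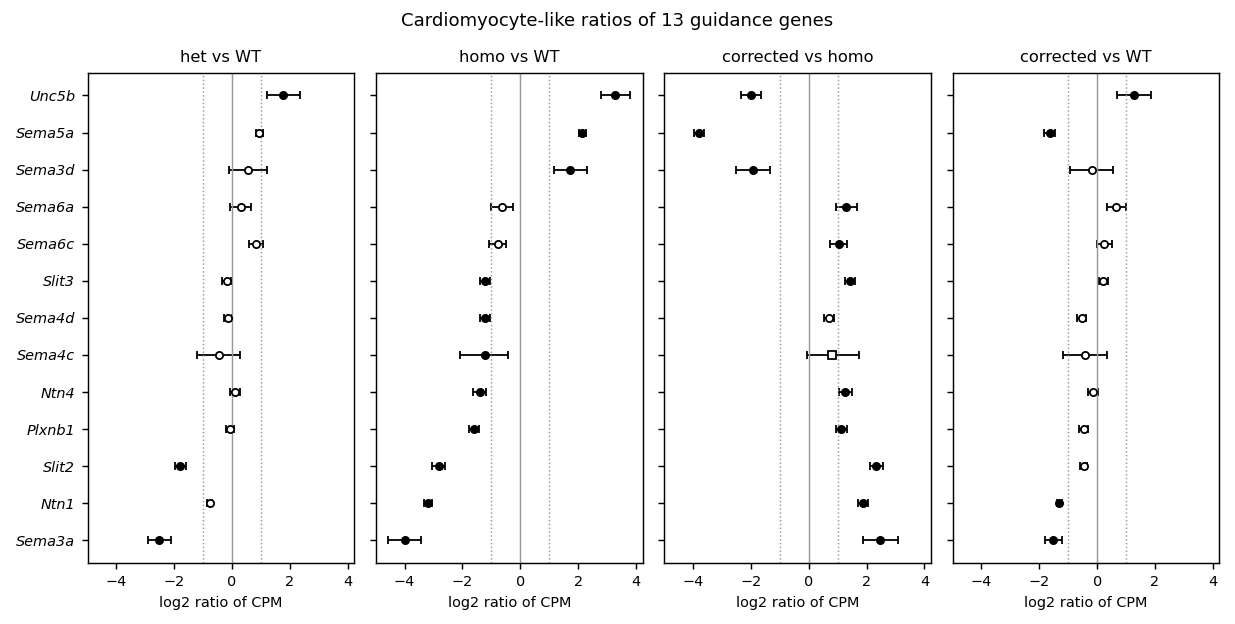
Log2 ratio of CPM with exact 95% counting intervals for the 13 genes in the 4 cardiomyocyte-like comparisons, filled where past 2-fold (dotted lines) and square where the 2 libraries held under 50 UMIs. In the corrected against WT panel 9 genes lie between the dotted lines, with Unc5b above them and Sema5a, Ntn1 and Sema3a below.

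In fibroblast-like nuclei of Rbm20_homo, 4 guidance genes of 26 were past 2-fold higher than in WT (Unc5b, Sema5a, Plxna4, Sema3d) and 3 lower (Sema3c, Plxna2, Sema6a). The background over all genes was 6.42% higher and 3.27% lower, against 15.4% and 11.5% of the guidance genes. The median log2 ratio of the guidance genes was -0.29 and that of all genes 0.05. The 3 lower genes became 5 with TMM factors and 6 with median-of-ratios factors or without doublet removal, where Plxnc1 was among those added each time.

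Unc5b was at 22.1, 24.6, 79.1 and 34.4 CPM in fibroblast-like nuclei, 3.59-fold higher (2.93 to 4.42) in Rbm20_homo than in WT. Carry-over was at most 6.97 CPM. The corrected library was 2.30-fold lower (2.01 to 2.63) than Rbm20_homo. Rbm20_homo stood apart from the other 3 libraries. Within clusters the ratio was 1.37 (0.893 to 2.04) in cluster 1 and 2.77 (1.18 to 8.57) in cluster 4. Sema5a was at 153, 261, 347 and 237 CPM, 2.28-fold higher (2.10 to 2.47) in Rbm20_homo than in WT, with 1.96 (1.71 to 2.25) and 2.51 (1.67 to 3.97) within clusters 1 and 4 and 0.738 (0.326 to 1.47) within cluster 12. Here the corrected library lay near Rbm20_het and above WT, whereas in cardiomyocyte-like nuclei it lay below WT. Sema3d, a secreted semaphorin, was at 35.9, 36.2, 73.9 and 38.6 CPM, 2.06-fold higher (1.75 to 2.44), and the ratio was 1.80 (1.30 to 2.48) within cluster 1 and 1.37 (0.719 to 3.02) within cluster 4. Median-of-ratios scaling put its log2 ratio at 0.99.

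Plxna4 was at 61.2, 67.5, 137 and 102 CPM in fibroblast-like nuclei, with carry-over at 59.03, 56.5, 59.5 and 67.5 CPM, so WT lay at its background. The ratio of Rbm20_homo to WT was 2.24 (1.97 to 2.54) over the class, 4.52 (3.82 to 5.35) in cluster 1 and 1.21 (0.740 to 2.12) in cluster 4. Plxna2 was at 200, 142, 94.6 and 160 CPM, 2.12-fold lower (1.93 to 2.32). Within clusters it was 1.77-fold (1.45 to 2.19) and 1.73-fold lower (1.12 to 2.55), both within 2-fold. Sema6a was at 230, 232, 109 and 235 CPM, 2.10-fold lower (1.93 to 2.29) in Rbm20_homo and level in the other 3 libraries. It was 2.21-fold lower (1.82 to 2.72) in cluster 1, and its inverse ratio was 0.899 (0.512 to 1.47) in cluster 4. Sema3c was at 145, 103, 57.2 and 83.7 CPM, 2.54-fold lower (2.27 to 2.84) in Rbm20_homo. In WT 477 of its UMIs came from the 220 nuclei of cluster 12, at 706 CPM, against 52.8 CPM in the 1639 nuclei of cluster 1. Cluster 12 held 220, 138, 28 and 237 nuclei, and the part of this in the class level was not tested. The clusters disagreed on Sema3c: it was 1.66-fold higher (1.28 to 2.14) in cluster 1, 3.37-fold lower (2.21 to 4.94) in cluster 4 and 2.63-fold lower (1.77 to 4.07) in cluster 12. Slit2, at 516, 428, 328 and 428 CPM, stayed within 2-fold.

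No guidance gene of 26 was past 2-fold in fibroblast-like nuclei for Rbm20_het against WT, where 0.821% of all genes were higher and 0.667% lower. None of 27 was for the corrected library against WT, where the shares were 1.88% and 1.06%. Between the corrected library and Rbm20_homo, 2 of 28 were higher (Sema6a and Plxnb1) and 1 was lower (Unc5b), against 3.41% and 4.60% of all genes. Sema6a was 2.14-fold higher (1.99 to 2.31). Plxnb1 went from 1.38 to 4.76 CPM, at its carry-over level.

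In endothelial-like nuclei, the receptors Robo2 and Plxnd1 were lower and the ligand Sema3g higher in Rbm20_homo than in WT, together with Sema5a, of 21 guidance genes measured. The background was 3.63% of all genes higher and 2.32% lower, against 9.52% of the guidance genes each way. Robo2, a Slit receptor, was at 114, 106, 34.4 and 168 CPM, from 249, 273, 78 and 619 UMIs. Rbm20_homo was lowest by a wide margin, 3.32-fold lower (2.56 to 4.34) than WT, and the corrected library 4.88-fold higher (3.85 to 6.26) than Rbm20_homo. Within cluster 2 it was 3.28-fold lower (2.51 to 4.33). Cluster 10, with 6 UMIs in Rbm20_homo and 12 in WT, gave 2.87-fold lower with an interval (0.998 to 9.33) that includes no difference.

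Plxnd1 was at 272, 192, 134 and 233 CPM, 2.03-fold lower (1.76 to 2.34) in Rbm20_homo than in WT, and 2.0-fold (1.73 to 2.32) and 1.95-fold lower (1.16 to 3.30) within the clusters. With Malat1 left out of the total its log2 ratio was -1.0, just within 2-fold. Sema3g was at 27.1, 43.2, 65.8 and 26.9 CPM, 2.43-fold higher (1.79 to 3.34) in Rbm20_homo than in WT and 2.45-fold lower (1.89 to 3.19) in the corrected library than in Rbm20_homo. The corrected library lay at the WT level. Cluster 10 held the higher Sema3g level, 219, 253, 363 and 191 CPM, and the ratio of Rbm20_homo to WT was 3.10 (1.58 to 6.52) in cluster 2 and 1.66 (1.17 to 2.39) in cluster 10.

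Sema5a in endothelial-like nuclei was at 9.64, 27.2, 37.1 and 24.2 CPM, under carry-over of 33.1, 54.5, 115 and 42.4 CPM, so its 3.85-fold ratio (2.36 to 6.54) compares levels under background. In the endothelial-like nuclei of Rbm20_homo, fibroblast markers stood at a median of 18.8% of their fibroblast-like level, against 6.36% in WT, and the part of this in the Sema5a value was not tested. For Rbm20_het against WT, 2 of 22 guidance genes were higher (Sema5a, Slit3) and 1 lower (Sema3d), against 1.02% and 0.797% of all genes. Between the corrected library and Rbm20_homo, 2 of 24 were higher (Robo2, Slit2) and 1 lower (Sema3g), against 2.65% and 2.92%. The corrected library against WT gave 1 higher gene of 24 (Sema5a), against 1.30% of all genes. Of the genes in these 3 comparisons, Slit2 and Slit3, like Sema5a, lay under carry-over in all 4 libraries, and Sema3d in Rbm20_het was at 19.9 CPM with carry-over at 17.4 CPM.

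**Figure D5:**
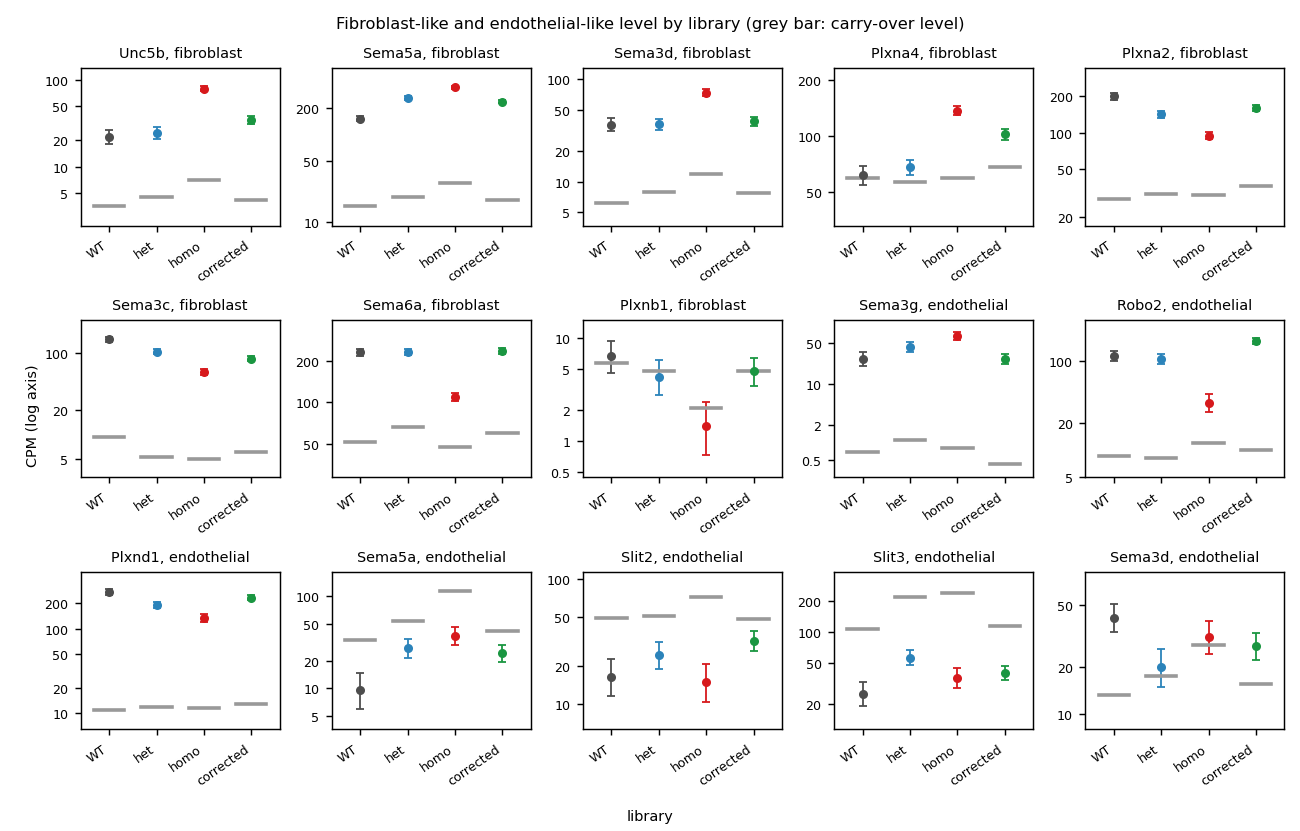
Level in CPM (log axis) by library of the guidance genes past 2-fold in any fibroblast-like or endothelial-like comparison, with exact Poisson 95% intervals, the grey bars showing the carry-over level. Unc5b in fibroblast-like nuclei peaks in Rbm20_homo at 79.1 CPM, Robo2 in endothelial-like nuclei dips there to 34.4 CPM, and the Sema5a, Slit2 and Slit3 panels of endothelial-like nuclei lie under their bars.

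Smaller classes gave few further calls. In pericyte-like nuclei Sema7a, a membrane-anchored semaphorin, was at 54.9, 40.04, 19.1 and 49.3 CPM, 2.88-fold lower (1.70 to 5.09) in Rbm20_homo than in WT (3.24% of all genes lower) and 2.58-fold higher (1.58 to 4.45) in the corrected library than in Rbm20_homo (2.60% higher). Carry-over for it was at most 4.32 CPM, and the Rbm20_homo value rests on 19 UMIs. Ntn4 in lymphatic endothelial-like nuclei was at 91.0, 58.2, 36.6 and 47.9 CPM, 2.49-fold lower (1.38 to 4.52) in Rbm20_homo than in WT (1.09% of all genes lower), and its log2 ratio was -0.99 without doublet removal. Apart from macrophage-like Sema3c, at 32.2 CPM in WT above carry-over of 20.4 CPM, the other calls in smaller classes lay at or near carry-over. In pericyte-like nuclei Slit3 was at 27.9, 83.1, 83.4 and 33.9 CPM under carry-over of 207, 404, 334 and 204 CPM (2.74% of all genes higher in Rbm20_homo than in WT, 0.932% in Rbm20_het, and 1.99% lower in the corrected library than in Rbm20_homo). Ntn1 and Sema6a, higher in corrected than in Rbm20_homo pericyte-like nuclei, were under carry-over too. In endocardial-like nuclei the calls were Sema3d and Unc5c, higher in Rbm20_homo than in WT (4.01% of all genes) and lower in the corrected library (2.81%). Sema3d lay under carry-over in every library, and Unc5c, at 14.9, 7.16, 30.03 and 8.90 CPM, near it. At the finer clustering the log2 ratio of Unc5c for Rbm20_homo against WT was 0.15 and that of Sema3d for the corrected library against Rbm20_homo was -0.53, within 2-fold. Slit2 in smooth muscle-like nuclei was under carry-over in both libraries of its call (1.74% higher in the corrected library). The macrophage-like calls were Ntn1 lower in Rbm20_homo (3.44%) and in Rbm20_het (2.65%) than in WT, Sema5a lower in the corrected library than in Rbm20_homo (2.20%) and Sema3c lower in the corrected library than in WT (2.32%). Ntn1 and Sema5a lay under carry-over in the libraries of these calls, and Sema3c at 32.2 against 12.98 CPM stood beside carry-over of 20.4 and 15.8 CPM. After thinning, the macrophage-like log2 ratio of Ntn1 for Rbm20_homo against WT was -0.12 and that of Sema5a -0.81. Over 8 classes and 4 comparisons, 21 of the 43 guidance genes were called at least once, in 67 calls. That is 58.3% of the 36 with enough UMIs in at least 1 comparison, against 36.7% of 15053 features of any kind. Such a share grows with the number of comparisons a gene enters, and the 2 sets were not matched for that or for level. Calls under carry-over are counted in it.

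Partners of these pathways were read in cardiomyocyte-like nuclei of Rbm20_homo against WT from 4 lists, with the same background of 6.25% higher and 9.17% lower. Of plexin signalling genes 5 of 23 were higher and 1 lower, with a median log2 ratio of 0.14. Of Slit-Robo signalling genes 1 of 14 was higher and 2 were lower (median -0.10), of netrin receptors and signalling genes 2 of 18 were higher and 2 lower (-0.35), and of semaphorin co-receptors and partners 0 of 7 were higher and 1 lower (-0.47). Srgap3, a Rac-inactivating protein that binds Robo tails, had the largest ratio of those named, at 3.21, 5.70, 28.8 and 5.66 CPM, 8.96-fold higher (6.72 to 12.2). Its relative Srgap2 went the other way, at 103, 64.6, 46.4 and 79.5 CPM, 2.23-fold lower (2.05 to 2.42). Both genes had their extreme in Rbm20_homo. The collapsin response mediators Dpysl3 and Dpysl2, which carry semaphorin signals to the cytoskeleton, were 2.24-fold (2.08 to 2.41) and 2.38-fold (1.92 to 2.96) higher. Farp1, an exchange factor that binds plexins, was at 44.2, 119, 125 and 92.6 CPM, 2.84-fold higher (2.61 to 3.09). No carry-over level was computed for these partner genes. Fibroblast markers in cardiomyocyte-like nuclei stood at a median of 2.02% of their fibroblast-like level in WT and 4.96% in Rbm20_homo.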

How the data were processed

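The files deposited by the authors hold raw UMI counts per gene and barcode, whole numbers with no normalization. The matrix headers name Cell Ranger 4.0.0, whereas Cell Ranger 6.1.1 stands in the submitters' processing notes, beside Seurat 4 and mm10 (GRCm38). Whether intronic reads were counted is not given in the sources used here.

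Barcodes under 300 genes or over 5% mitochondrial UMIs were dropped, and Scrublet's highest scorers were removed at 0.8% per 1000 barcodes (713 to 1813 per library). With scanpy 1.11.5, counts scaled to 10000 were logged, 2000 variable genes (guidance genes excluded) gave 30 principal components and 20 neighbours, and Leiden resolution 0.8 gave 28 clusters. A cluster took a name from at least 3 markers; these naming thresholds were set after seeing the data. Unnamed clusters held 10.5% of nuclei. Members and lists were chosen with earlier results of these data known.

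UMIs were summed by class and library. Ratios carry exact conditional binomial 95% intervals, CPM exact Poisson and shares Clopper-Pearson intervals. With 1 library per genotype there is no test: a gene is called when past 2-fold with at least 50 UMIs in both libraries together. Intervals cover counting error only. Named genes are all called members, members by highest class, and the 6 called pathway genes of most UMIs, of which 1 is not reported here. Alternatives changed the scaling (edgeR's TMM factors, median of ratios, Malat1 left out), depth, count minimum, doublet removal, nucleus filter and clustering. The code was tested on simulated data.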

Additional observations from a re-analysis of the deposited data

Results flagged for a closer look

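In 3 comparisons a guidance gene was past 2-fold one way in one class and the other way in another, and the difference was not tested. For Rbm20_homo against WT, Slit3 had a log2 ratio of -1.21 in cardiomyocyte-like and 1.58 in pericyte-like nuclei. For the corrected library against Rbm20_homo, Slit3 had 1.42 in cardiomyocyte-like and -1.3 in pericyte-like nuclei. For the corrected library against WT, Sema5a had -1.64 in cardiomyocyte-like and 1.33 in endothelial-like nuclei. The pericyte-like Slit3 and endothelial-like Sema5a levels lie under carry-over in all 4 libraries.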

How the results depend on the processing

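Of 67 single-gene calls, 49 stayed past 2-fold under every alternative run and 18 fell within 2-fold under at least 1. None of 535 alternative values reversed. The counts of called guidance genes were within 1.5 times the reported count in 153 alternative values and outside it in 28, and the 27 genes with 1 top class in every library also stayed within that. The 28 exceptions follow, and where the setting does not itself change the genes or nuclei admitted, the cause was not tested. In cardiomyocyte-like nuclei, the 1 higher gene of Rbm20_het against WT became 2 with TMM factors, median-of-ratios factors, a minimum of 20 UMIs or a minimum of 500 genes with at most 1% mitochondrial UMIs, and 0 with a minimum of 200 UMIs. The 2 lower genes became 4 with 20 UMIs. The 1 higher gene of corrected against WT became 0 after thinning to 1000 UMIs or with 200 UMIs, and 2 with 20 UMIs or without doublet removal. In fibroblast-like nuclei, the 3 lower genes of Rbm20_homo against WT became 5 with TMM factors or the stricter filter on nuclei, and 6 with median-of-ratios factors or without doublet removal. For corrected against Rbm20_homo, the 2 higher genes became 1 with 200 UMIs, the stricter filter or levels above carry-over only, and the 1 lower gene became 2 after thinning and 3 with 20 UMIs. In endothelial-like nuclei, the 2 higher genes of Rbm20_homo against WT became 1 with 200 UMIs or above carry-over only, and the 2 lower genes became 1 with Malat1 left out and 4 with 20 UMIs. For corrected against Rbm20_homo, the 2 higher genes became 1 after thinning, with 200 UMIs, with guidance genes allowed among the variable genes, or above carry-over only, and the 1 lower gene became 2 without doublet removal. The carry-over comparisons were chosen after seeing the data. No paired analysis was possible because each genotype has 1 library. Lymphatic and mesothelial levels rest on few nuclei, which limits depth.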

Other observations

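Other genes were also high in the cardiomyocyte-like nuclei with at least 5 Slit2 UMIs. The 8 genes with the largest ratio to nuclei without a Slit2 UMI in WT, among those with at least 40 UMIs in these nuclei, were Sema3a, Ephb1, Slit3, Gm40649, Etv1, Fbn2, Rgs7 and Rp1. They were chosen on the WT values, so those describe the choice, and the corrected library gives the same measure in nuclei it did not use. There Ephb1, a receptor for ephrins, another guidance family, was at 204 against 5.39 CPM, 37.9-fold higher (26.2 to 54.5). Etv1, an ETS-family transcription factor, was at 132 against 9.28 CPM, 14.3-fold higher (9.53 to 20.9). Rgs7, a regulator of G-protein signalling, was 12.2-fold higher (9.81 to 15), Rp1 20.6-fold (14.0 to 29.7), Gm40649 6.90-fold (4.96 to 9.40) and Fbn2, a fibrillin, 3.25-fold (2.61 to 4.0). In the corrected library the counting intervals of all 8 ratios lay above 1, and they do not measure the spread between nuclei. Whether they come from 1 or several of the 3 pooled hearts cannot be told apart.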
